A study of Mus musculus with 4 samples.

Results

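A set of 10 genes that hold back the cell cycle or serve as readouts of cellular senescence were followed in bone marrow stromal cells of mature and elderly mice. They are the CIP/KIP inhibitors Cdkn1a, Cdkn1b and Cdkn1c, the INK4 inhibitors Cdkn2a, Cdkn2b, Cdkn2c and Cdkn2d, the tumour suppressors Trp53 and Rb1, and the lamin gene Lmnb1. They were chosen by name, as 10 of the 33924 genes in the count tables, and the counts of each gene's transcripts were summed in each library. All animals were wild-type C57Bl/6 mice, male according to the methods, aged 3 months in the mature group and 24 months in elderly group. Each age had 2 libraries. According to the methods RNA of 3 or 4 mice was pooled for a group, whereas the sample titles number single mice, and whether a library holds 1 animal or a pool is not settled by these sources. An SD with n = 2, like every p-value, therefore describes how libraries differed. The methods describe cells sorted as lacking Ter119, CD31 and CD45 (Lin−) and carrying the leptin receptor (LEPR), the marker of marrow skeletal stem and progenitor cells (SSPCs), whereas the sample labels give unsorted bone marrow as the source. The LEPR+ stromal genes Lepr and Cxcl12 were at 6010 ± 529 and 12651 ± 1400 CPM (SD, n = 2) in the mature libraries, and at 4947 ± 1189 and 8263 ± 1529 CPM in the elderly ones.

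Cyclin-dependent kinases drive a cell out of G1 by phosphorylating the retinoblastoma protein Rb, which then releases the E2F factors that switch on the genes of DNA replication. INK4 proteins bind Cdk4 and Cdk6, CIP/KIP proteins bind cyclin-kinase complexes more widely, and p53 halts the cycle after DNA damage largely through Cdkn1a. In senescent cells p16Ink4a, made from Cdkn2a, and p21, made from Cdkn1a, commonly accumulate, and lamin B1, a structural protein of the nuclear envelope, is commonly lost.

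The libraries held between 10472117 and 15650518 counts. Values are given as counts and as CPM, the counts relative to library size after scaling with TMM factors between 0.969 and 1.06. What could be counted came before what was counted. Every transcript of the annotation was listed on its own, and the 25621 transcripts whose exons hold no base of their own had 0 counts in all 4 libraries, whereas 47655 of the 69874 with such bases had at least 1. Exon bases covered by exactly 1 listed transcript are therefore called countable here. The members ranged from 38 countable bases for Cdkn1c to 4034 for Rb1, and only 6 of the 10 had countable bases within coding sequence. The median protein-coding gene had countable bases worth 82.4% of its longest transcript.

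**Figure D1:**
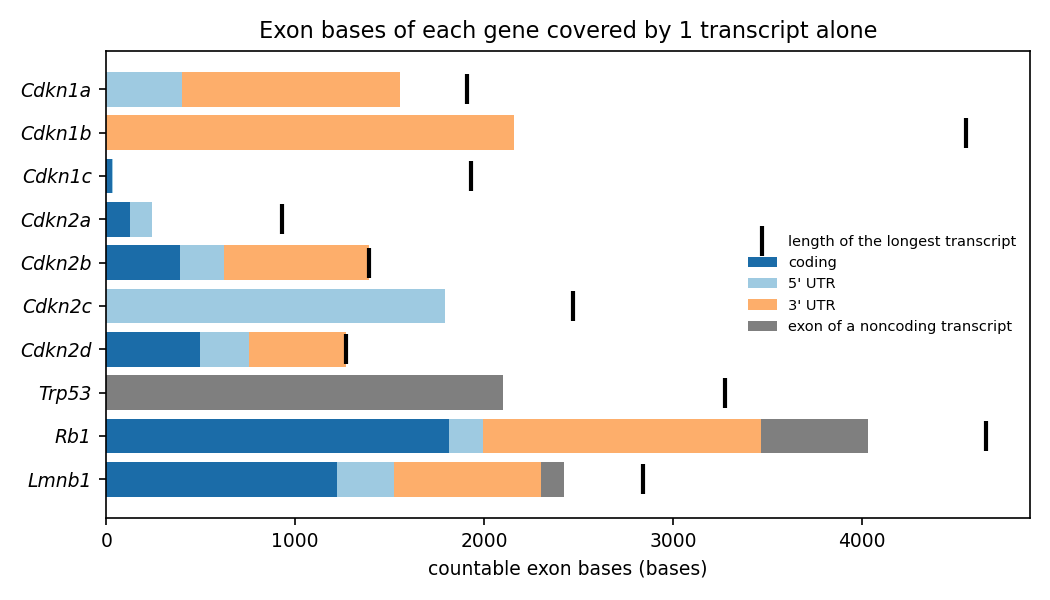
Countable exon bases of each of the 10 genes (exon bases that a single listed transcript covers), split by coding, 5′ UTR, 3′ UTR and noncoding exon sequence, with a black mark at the length of the longest transcript. Cdkn2b and Cdkn2d are countable over their whole length, Trp53 only in a noncoding transcript, and Cdkn1c has 38 bases.

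For some genes the countable stretch decides what a count can mean, and the sequences of 3 are shown for that reason. Cdkn2a makes p16Ink4a and, from another first exon, p19Arf. The p16Ink4a transcript had 207 countable bases in its first exon, 126 of them coding, at chr4:88927890-88928015 (minus strand). The first exon of p19Arf is shared by Cdkn2a-002, with only 34 countable bases, all 5′ UTR, and Cdkn2a-201, with 0. Of Cdkn1c, 29 coding bases were countable at chr7:150646584-150646612 (minus strand), with 9 more of 5′ UTR. All 2098 countable bases of Trp53 belonged to Trp53-003, a noncoding transcript that runs on into the intron after coding exon 4, and the stretch across that border lies at chr11:69401105-69401164 (plus strand). The sequences read 5′ to 3′ in NCBI Build 37 (mm9). In the first pair the capitals mark the start codon, and in Trp53 they mark the first countable bases, which are intron in the coding transcripts.
p16Ink4a countable coding bases: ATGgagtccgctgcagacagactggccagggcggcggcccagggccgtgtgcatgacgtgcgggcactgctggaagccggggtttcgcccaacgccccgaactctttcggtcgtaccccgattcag
Cdkn1c countable coding bases: ATGggcatgtccgacgtgtacctccgcag
Trp53 exon-intron border: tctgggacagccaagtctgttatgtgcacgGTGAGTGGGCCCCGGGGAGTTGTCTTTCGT

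Elderly and mature libraries were set against each other with edgeR's quasi-likelihood test on 21340 genes. A gene was called at an adjusted p under 0.05 (Benjamini-Hochberg, over every gene tested). Of the 10 genes, 9 had enough counts to be tested, and Cdkn2a had none. Lmnb1 alone was called, and it was higher in elderly libraries, where 2.28% of all genes tested were called higher. No member was called lower, against 0.45% of all genes. At an unadjusted p under 0.05 the quasi-likelihood test and DESeq2 each found 1 member higher and 0 lower, and edgeR's exact test at a set dispersion of 0.2 found 0 and 0. The groups did not overlap, with elderly the higher, for Cdkn2c, Cdkn2d, Rb1 and Lmnb1, 4 of the 9 tested, which held for 22.9% of all genes tested. Elderly was the lower, again without overlap, for Cdkn1b and Cdkn2b, 2 of the 9, against 18% of all genes. With so few members, these shares were not read as a property of the group.

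**Figure D2:**
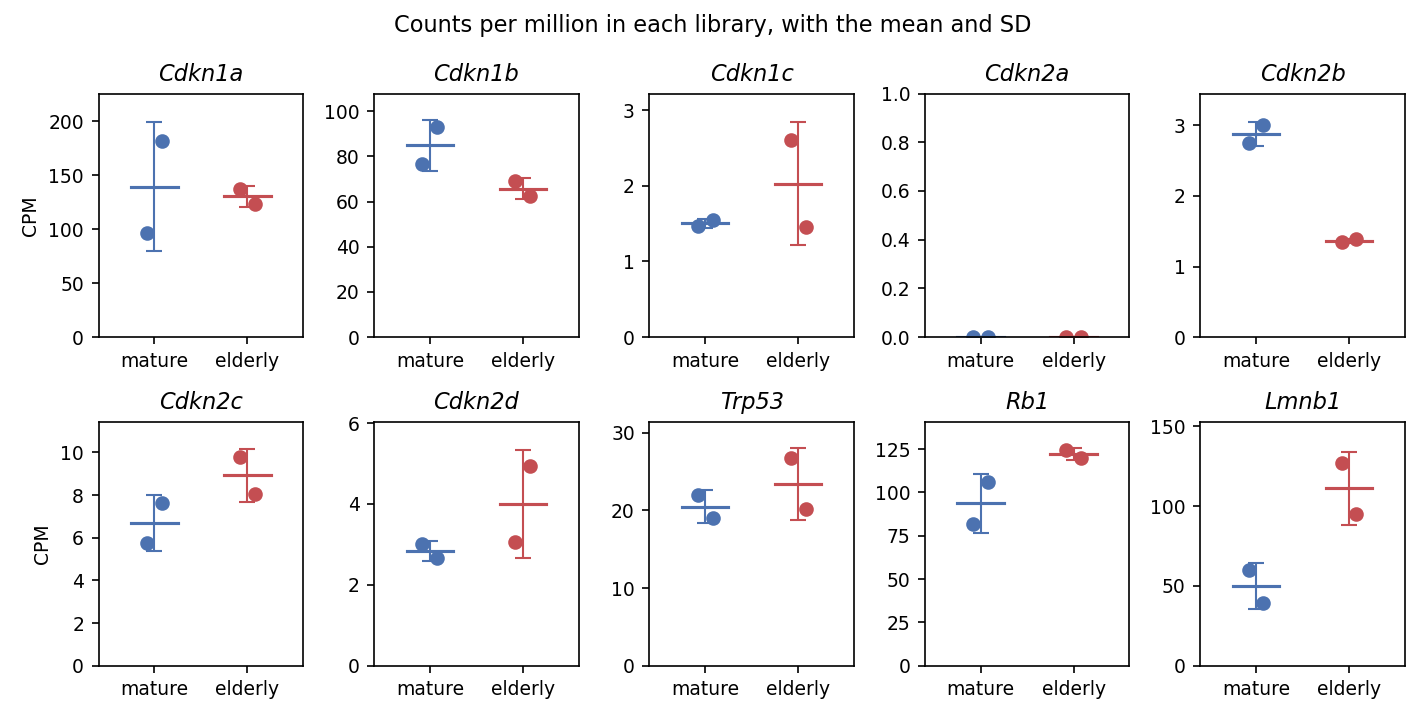
Normalized level (CPM) of each gene in each of the 4 libraries, 2 mature and 2 elderly. Horizontal lines are the mean and error bars the SD (n = 2). Lmnb1 lies at 59.9 and 39.5 CPM in mature and at 127 and 95.1 CPM in elderly libraries, Cdkn1a and Trp53 overlap between the ages, and Cdkn2a is at 0 counts throughout.

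Cdkn1a, which encodes the p53-induced inhibitor p21, was the most abundant member per length, at 89.4 ± 38.5 CPM per kilobase of countable bases in mature and 83.7 ± 6.28 in elderly libraries (SD, n = 2). It lies at chr17:29227924-29237667 (plus strand), and its 1556 countable bases are all UTR. Its counts were 1125 and 2116 in the mature libraries and 1526 and 1868 in the elderly ones, or 96.8, 181, 137 and 123 CPM. Both elderly values lay between the mature values, so the ages overlapped, and the mature libraries were further apart (139 ± 59.8 against 130.2 ± 9.77 CPM). The log2 fold change, elderly over mature, was −0.096 with an SE of 0.26 and an interval of −0.66 to 0.47, and it was not called (edgeR adjusted p = 0.947). Its sign rested on 1 library, since it was 0.38 without mature replicate 2. Transcript Cdkn1a-001 held 92.4% of its counts and Cdkn1a-002 7.55%.

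Cdkn1b, which encodes p27, lies at chr6:134870419-134875531 (plus strand). Its 2159 countable bases all lie in the 3′ UTR of transcript Cdkn1b-001. They are intron in Cdkn1b-002, the other coding transcript, which had 0 countable bases and 0 counts. Unspliced RNA of the gene would be counted there too, so these counts do not measure all messenger RNA for p27. The mature libraries held 893 and 1084 counts (76.9 and 93.0 CPM) and the elderly libraries 768 and 945 (69.0 and 62.4 CPM). Both elderly values were the lower in CPM, without overlap. The difference was −0.37 on the log2 scale (SE 0.21, 95% interval −0.82 to 0.079) and did not pass the test (edgeR adjusted p = 0.574).

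Cdkn1c, which encodes p57, a CIP/KIP inhibitor prominent in quiescent stem cells, was counted 17 and 18 times in mature and 29 and 22 times in elderly libraries, at chr7:150644255-150646955. That is 1.46, 1.54, 2.60 and 1.45 CPM, and elderly replicate 2 lay below both mature libraries. The log2 fold change of 0.42 (SE 0.57, edgeR adjusted p = 0.880) turned to −0.066 without elderly replicate 1. With 38 countable bases, 1.97% of its longest transcript, these counts were not read as a low level of Cdkn1c. Untrimmed reads in the methods are longer than that stretch and would also reach beyond it. Whether spliced or unspliced RNA gave these counts is not known. Summed, the CIP/KIP genes held 175 and 276 CPM in mature and 209 and 187 CPM in elderly libraries, with both elderly sums between the mature ones.

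Of the INK4 genes, Cdkn2a at chr4:88920377-88940557 had 0 counts in every library. Taking 3 counts as the limit that a count of 0 allows, p16Ink4a was not detectable over its 207 countable bases below 1.25 and 1.24 CPM per kilobase in mature replicates 1 and 2, and below 1.30 and 0.956 in elderly replicates 1 and 2. Pooled over the libraries of an age, the limit was 0.623 CPM per kilobase for mature and 0.551 for elderly cells. These limits cover counting error only, and assume that a read anywhere on the 207 bases would be counted. How read pairs reaching into shared bases were handled is not known, so the true limits may be higher. At the p19Arf first exon only 34 bases, of Cdkn2a-002, were countable, and no level was read from the count of 0. Cdkn2a was therefore compared between the ages by neither a fold nor a test.

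Cdkn2b, which encodes p15Ink4b and lies 11640 bases beyond Cdkn2a at chr4:88952198-88956941, was countable over all of its 1393 bases. The mature libraries held 32 and 35 counts (2.75 and 3.00 CPM) and the elderly libraries 15 and 21 (1.35 and 1.39 CPM). The ages did not overlap, and the means were 2.88 ± 0.175 and 1.37 ± 0.027 CPM (SD, n = 2). Counting error alone is wider than those SDs: the 95% Poisson interval was 2.09 to 4.17 CPM in mature replicate 2 and 0.858 to 2.12 CPM in elderly replicate 2. The log2 fold change of −1.07 (SE 0.50, 95% interval −2.16 to 0.022) was the largest negative one among the members and was not called (edgeR unadjusted p = 0.0541, adjusted p = 0.460).

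The other INK4 genes had their higher values in elderly libraries. Cdkn2c, which encodes p18Ink4c at chr4:109333481-109339794, had 67 and 89 counts in mature and 109 and 122 in elderly libraries (5.77, 7.63, 9.79 and 8.05 CPM). Cdkn2d, which encodes p19Ink4d at chr9:21092907-21095653, had 35 and 31 counts in mature and 34 and 75 in elderly libraries (3.01, 2.66, 3.05 and 4.95 CPM). In both genes the elderly libraries were the higher, by a narrow margin in Cdkn2d, where mature replicate 1 and elderly replicate 1 were nearly equal. Neither was called, with log2 fold changes of 0.41 (SE 0.32, edgeR adjusted p = 0.713) and 0.50 (SE 0.43, adjusted p = 0.737). All countable bases of Cdkn2c are 5′ UTR, and transcript Cdkn2c-001 held 82.2% of its counts. The INK4 genes summed to 11.5 and 13.3 CPM in mature and 14.2 and 14.4 CPM in elderly libraries, far under the CIP/KIP sums, although the sums are not per length.

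Trp53 (chr11:69393861-69405375) had 256 and 221 counts in mature and 297 and 305 in elderly libraries (22.03, 18.95, 26.7 and 20.1 CPM). The ages overlapped, since elderly replicate 2 lay between the mature libraries. The log2 fold change was 0.19 (SE 0.26, 95% interval −0.37 to 0.75, edgeR adjusted p = 0.880), and −0.044 without elderly replicate 1. All of these reads were counted on bases listed for the noncoding Trp53-003, which are intron in the 5 coding transcripts. Unspliced RNA of the gene would be counted there too, and the 2 sources cannot be told apart. The 5 coding transcripts had no countable base and 0 counts, so the messenger RNA for p53 itself was not measured here.

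Rb1, which encodes the pocket protein that the INK4 inhibitors keep active, lies at chr14:73583480-73725629 and had 4034 countable bases, 1813 of them coding. Its counts were 948 and 1234 in mature and 1385 and 1815 in elderly libraries (81.6, 106, 124 and 120 CPM). Both elderly libraries were above both mature ones, at means of 122 ± 3.29 against 93.7 ± 17.1 CPM. The log2 fold change of 0.38 (SE 0.21, 95% interval −0.064 to 0.83) was not called (edgeR adjusted p = 0.553). Rb1-001, the full-length coding transcript, held 97.5% of the counts. The strand setting of the counting was not stated, and other genes, among them Rcbtb2 on the opposite strand and Lpar6, overlap the locus.

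Lmnb1 (chr18:56867467-56913078, plus strand) encodes lamin B1 and rose. The mature libraries held 696 and 461 counts (59.9 and 39.5 CPM) and the elderly libraries 1417 and 1441 (127 and 95.1 CPM). The ages were clearly apart, with the lowest elderly library above the highest mature one and mature replicate 2 lowest of all. The means were 49.7 ± 14.4 and 111 ± 22.8 CPM (SD, n = 2), a 2.24-fold difference or 1.16 on the log2 scale (SE 0.25, 95% interval 0.63 to 1.70, edgeR adjusted p = 0.0244, DESeq2 adjusted p = 0.00124). The call depended on single libraries: the log2 fold change was 0.85 without mature replicate 2 (adjusted p = 0.235), 0.92 without elderly replicate 1 (adjusted p = 0.347) and 1.36 without elderly replicate 2 (adjusted p = 0.602), each with edgeR. It was also not called by edgeR's exact test at a dispersion of 0.2 (adjusted p = 0.818). Over all 15 alternatives the adjusted p ran from 6.67e-06 to 0.818, and Lmnb1 was higher in elderly cells in each.

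Transcripts of Lmnb1 could be told apart in part. Lmnb1-001, the coding transcript, held 99.2% of the counts (691, 459, 1402 and 1429) and was called on its own (log2 fold change 1.19, edgeR adjusted p = 0.0144 over all transcripts). The retained-intron transcript Lmnb1-002 held 5, 2, 15 and 12 counts, with a log2 fold change of 1.82 that was not called (edgeR unadjusted p = 0.0458, adjusted p = 0.562). Neither of the other lamin genes was called. Per CPM of Lmnb2, the second B-type lamin, Lmnb1 stood at 3.19 and 1.6 in mature and 6.41 and 4.60 in elderly libraries. Per CPM of Lmna, the A-type lamin gene, it stood at 0.487 and 0.291 against 1.45 and 1.04. Lmna itself had 129 ± 9.08 CPM in mature and 89.7 ± 2.42 in elderly libraries and was not called (log2 fold change −0.53, edgeR adjusted p = 0.260). Per CPM of Mki67, a proliferation gene, Lmnb1 was instead lower in the elderly libraries. It stood there at 0.188 and 0.192, against 0.247 and 0.416 in the mature ones.

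**Figure D3:**
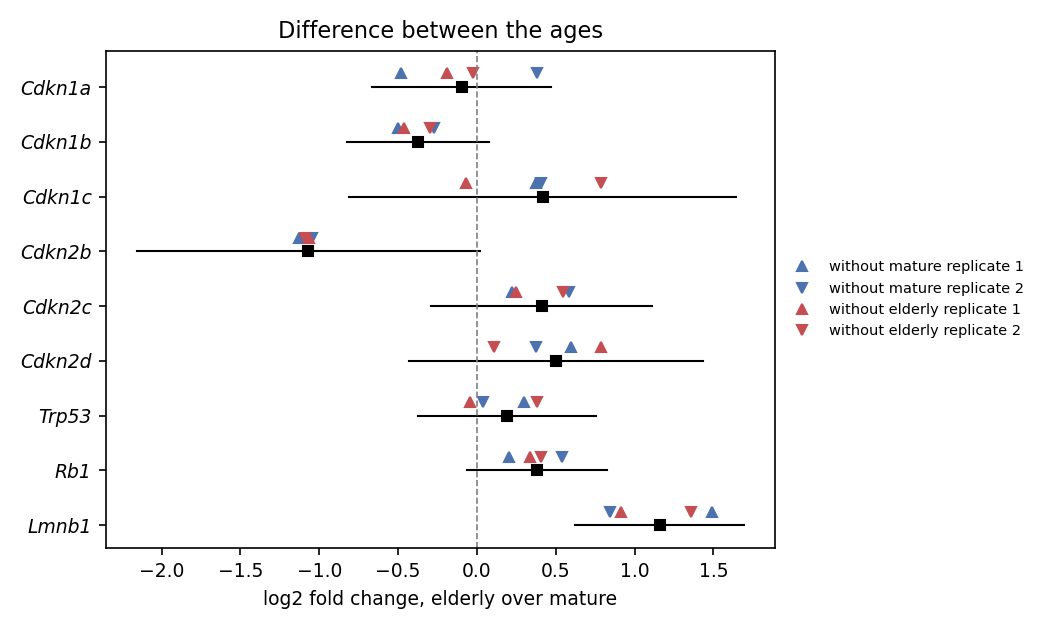
Log2 fold change (elderly over mature) of the 9 tested genes (squares) with the 95% interval of edgeR's quasi-likelihood fit. Triangles give the value with each library left out in turn. The interval of Lmnb1, 0.63 to 1.70, lies above 0, whereas the other intervals hold 0, that of Cdkn2b narrowly (−2.16 to 0.022).

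Proliferation genes and markers of other blood lineages were higher in the same libraries as Lmnb1. The proliferation list (26 genes of replication and mitosis) summed to 767 and 449 CPM in mature and 1812 and 1272 CPM in elderly libraries. Erythroid markers, which the removal of Ter119+ cells should leave scarce, summed to 350 and 155 CPM in mature and 1307 and 1169 CPM in elderly libraries. Of the 11 tested, 8 were called higher. Neutrophil markers summed to 2122 and 1217 CPM in mature and 4560 and 4498 CPM in elderly libraries. Again 8 of 11 were called higher, where 2.28% of all genes were called higher. The proliferation, erythroid and neutrophil sums each had the same order over the 4 libraries as Lmnb1. Without elderly replicate 1 or elderly replicate 2, edgeR called 0 of either list, although the median log2 fold change of the erythroid list stayed at 1.85 and 2.31 and that of the neutrophil list at 1.44 and 1.47. LEPR+ stromal markers summed to 30602 to 31121 CPM in mature and 18949 to 27422 CPM in elderly libraries, with 0 of 10 called by edgeR's quasi-likelihood test, DESeq2 or the exact test and 3, all lower, at an unadjusted p under 0.05. Neither the part of these cells nor that of proliferation in the differences of Lmnb1, Cdkn1b and Cdkn2b was tested. In such bulk RNA a change in the number of cells of a type and a change in RNA per cell cannot be told apart.

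Levels were also ordered per length, in CPM per kilobase of countable bases, leaving out Cdkn1c for its few bases. In the mature libraries the order was Cdkn1a, Cdkn1b (39.3 ± 5.27), Rb1 (23.2 ± 4.25) and Lmnb1 (20.5 ± 5.95). Below them came the Trp53-003 bases (9.77 ± 1.04), Cdkn2c (3.73 ± 0.735), Cdkn2d (2.23 ± 0.197) and Cdkn2b (2.07 ± 0.13). Rb1 and Lmnb1, and Cdkn2d and Cdkn2b, were neighbours whose libraries overlapped. In the elderly libraries Lmnb1 stood second, at 45.9 ± 9.40, above Cdkn1b (30.4 ± 2.17) and Rb1 (30.3 ± 0.815), whose libraries overlapped. The Trp53-003 bases (11.2 ± 2.21), Cdkn2c (4.97 ± 0.686), Cdkn2d (3.15 ± 1.05) and Cdkn2b (0.981 ± 0.019) followed. Cdkn1a exceeded 96.8% of the 20012 genes ranked in mature cells and 96.5% in elderly cells, whereas Cdkn2b exceeded 41.3% and 27.5%.

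Of 21 cyclins, kinases, pocket proteins and E2F factors of the G1/S switch, on which the inhibitors act, edgeR's quasi-likelihood test called 2 higher and 0 lower. DESeq2 called 3 and 0, and the exact test 0 and 0. Over all genes tested, the quasi-likelihood test called 2.28% higher and 0.45% lower. At an unadjusted p under 0.05 there were 9 of the 21 higher and 0 lower, and the median log2 fold change of the list was 0.47 beside 0.016 over all genes tested. E2f2, an activating E2F factor, rose from 199 and 86 to 594 and 866 counts (log2 fold change 2.17, SE 0.33, edgeR adjusted p = 0.00381). Ccnd1, the gene of cyclin D1, which the INK4 proteins oppose, rose from 84 and 110 to 284 and 386 counts (1.61, SE 0.28, adjusted p = 0.00749). Without elderly replicate 1 or elderly replicate 2, edgeR called 0 of the 21, and without mature replicate 1 it called 5, with medians from 0.40 to 0.46 over the 4 fits that left out a library. Erythroid and neutrophil markers were higher in the same elderly libraries, as given above, and their part in the partners, the proliferation genes and the p53 targets was not tested.

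Of the 9 lists of pathway genes, proliferation genes had the median furthest from that of all genes: 9 of 26 were called higher and 0 lower by edgeR's quasi-likelihood test, 10 and 0 by DESeq2 and 0 and 0 by the exact test, with a median of 1.21. At an unadjusted p under 0.05 there were 16 higher and 0 lower. Among all genes tested the quasi-likelihood test called 2.28% higher and 0.45% lower. Bub1b, of the spindle checkpoint, rose from 71 and 55 to 243 and 248 counts (log2 fold change 1.81, edgeR adjusted p = 0.00749). Mki67, the gene of the proliferation antigen Ki-67, rose from 2813 and 1108 to 7523 and 7503 counts (1.80, adjusted p = 0.0142). Mcm2, of the replicative helicase, rose by 1.44 (adjusted p = 0.0138) and Ccnb2, a mitotic cyclin, by 1.49 (adjusted p = 0.0150). Without elderly replicate 1 or elderly replicate 2, 0 of the 26 were called by edgeR, and 2 were without mature replicate 2 and 13 without mature replicate 1. The median of the list was then 0.80, 1.56, 0.94 and 1.75 in that order. Calls were lost among all genes too, with 0 called in all without elderly replicate 2, and 37 higher and 4 lower without elderly replicate 1. In such fits the single library left of an age is assumed to vary like those of the other age.

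**Figure D4:**
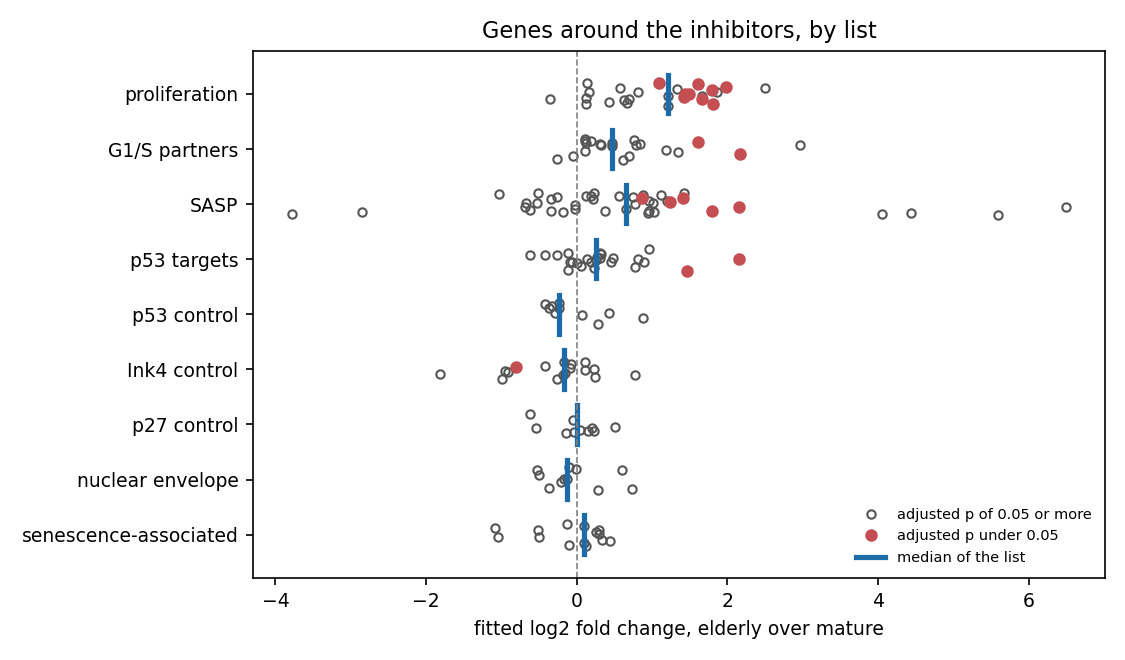
Log2 fold changes (elderly over mature) of the genes of each list around the inhibitors, each point a gene, with called genes marked and the median of each list drawn. The proliferation list has its median at 1.21 and the p53 control list at −0.23, beside 0.016 over all genes tested.

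Of 10 tested genes that control p53 or the DNA damage response, 0 were called by edgeR's quasi-likelihood test, DESeq2 or the exact test, and 0 had an unadjusted p under 0.05. The median was −0.23, and the smallest p belonged to Atm, a DNA damage kinase (log2 fold change 0.88, adjusted p = 0.564), followed by Usp7, a deubiquitinase of p53 and Mdm2 (−0.37, adjusted p = 0.621). Of 25 tested genes that p53 is known to activate, Cdkn1a left out, the quasi-likelihood test and DESeq2 each called 2 higher and 0 lower and the exact test 0 and 0, where 2.28% of all genes were called higher. Of the 25, 12 lay higher in both elderly libraries without overlap, against 22.9% of all genes, and 5 had an unadjusted p under 0.05, all higher, and the median was 0.26. The 2 called by the quasi-likelihood test were Eda2r and Pmaip1. Eda2r, a receptor of the TNF receptor family, went from 21 and 12 to 81 and 83 counts (2.16, edgeR adjusted p = 0.0216). Pmaip1, the gene of the cell death protein Noxa, went from 73 and 53 to 189 and 195 counts (1.46, adjusted p = 0.0291). Neither call held without mature replicate 2, elderly replicate 1 or elderly replicate 2, when 0 of the 25 were called.

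Of 17 genes of Polycomb and other control of the Ink4 locus, edgeR's quasi-likelihood test called 0 higher and 1 lower, DESeq2 1 higher and 1 lower, and the exact test 0 and 0. At an unadjusted p under 0.05 the quasi-likelihood test had 1 higher and 4 lower, and the median was −0.17. Id3, an inhibitor of helix-loop-helix factors, fell from 3912 and 3879 to 1971 and 3129 counts (log2 fold change −0.80, edgeR adjusted p = 0.0468), a call lost when any 1 of the 4 libraries was left out. Ets2, an ETS factor, had a log2 fold change of 0.77 and was not called (adjusted p = 0.0629). Of 10 genes that control p27, 0 were called by edgeR or DESeq2, 1 had an unadjusted p under 0.05, and the median was 0.0039. Foxo1, a forkhead factor that can induce Cdkn1b, had a log2 fold change of −0.62 (edgeR adjusted p = 0.254), and Skp1a, of the ubiquitin ligase that removes p27, one of −0.54 (adjusted p = 0.605).

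Of 11 nuclear envelope genes other than Lmnb1, 0 were called by edgeR's quasi-likelihood test and 1 by DESeq2, and 3 had an unadjusted p under 0.05, 2 higher and 1 lower. Their median was −0.12. Lbr, the lamin B receptor, had 2961 and 2365 counts in mature and 4464 and 5487 in elderly libraries (log2 fold change 0.74, edgeR adjusted p = 0.0870). Its elderly libraries were both above its mature ones, as for Lmnb1, whereas those of Lmna were both below.

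Of 41 tested genes of the senescence-associated secretory phenotype (SASP), edgeR's quasi-likelihood test called 5 higher and 0 lower. It called 2.28% of all genes higher and 0.45% lower. DESeq2 called 6 and 1 of the 41, and the exact test 2 and 0. At an unadjusted p under 0.05 the quasi-likelihood test had 16 higher and 3 lower. The median log2 fold change was 0.66, or 0.56 where the 4 genes at 0 in both libraries of an age were set at their bound against 3 counts per library. Hgf, the hepatocyte growth factor, rose from 279 and 312 to 627 and 1189 counts (log2 fold change 1.41, edgeR adjusted p = 0.00698). Il1b, an inflammatory cytokine, rose from 414 and 397 to 750 and 1469 counts (1.24, adjusted p = 0.0132). Tnfrsf11b, the gene of osteoprotegerin, which blocks osteoclast formation, rose by 1.80 (adjusted p = 0.0203), and Icam1, an adhesion molecule, by 0.86 (adjusted p = 0.0320). The fifth, Ccl5, a chemokine, was named after its values were seen and rose by 2.15 (adjusted p = 0.0416). Without elderly replicate 1 or elderly replicate 2, 0 of 40 tested were called by edgeR. Several of these factors are also made by myeloid cells, whose markers were higher as given above, and the part of those cells was not tested. Of 14 other senescence-associated genes, 0 were called by edgeR or DESeq2 and 1 had an unadjusted p under 0.05, with a median of 0.099. Sqstm1, an autophagy receptor, had a log2 fold change of −0.51 (edgeR adjusted p = 0.330), and Bcl2l2, a survival factor of the BCL2 family, one of −1.09 (adjusted p = 0.548).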

How the data were processed

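The authors removed adapters with CutAdapt, used HISAT2 to map reads to NCBI Build 37 (mm9) and featureCounts to count them. They deposited whole-number counts per Ensembl transcript without normalization. The strand setting and the handling of shared bases were not given in the sources used here. Of 95883 transcripts, 388 could not be matched to GENCODE release M1 and held 0.0785% to 0.0888% of the counts.

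Counts were summed per gene, genes with more than 2 counts over the 4 libraries were kept (21340), and the ages were compared with edgeR 4.0.16 (quasi-likelihood test, 2-sided, TMM, no covariate, common dispersion 0.0687) in R 4.3.3. The methods apply the same minimum and scaling to transcripts and then keep protein-coding ones, whereas all kinds of genes were kept here. Log2 fold changes use edgeR's default prior count. DESeq2 1.42.0, the authors' exact test at a dispersion of 0.2, other filters and scalings, the replicate number and each library left out were tried as alternatives. Tests were checked on simulated counts. Single-library intervals are exact 95% Poisson intervals of counting error.

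The members and lists were chosen with earlier results of these data known. The genes named beside the members are those of each list with an adjusted p under 0.05, the 4 with the smallest p where more pass, and the 2 with the smallest p where fewer than 2 pass. Besides the marker lists in the text, markers of 6 other cell kinds were summed.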

Additional observations from a re-analysis of the deposited data

How the results depend on the processing

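Lmnb1 was higher in elderly cells under all 15 alternatives, with log2 fold changes from 0.85 to 1.49, and it was not called under 4 of them, named with their values beside the result. Leaving out 1 library gave 0 to 733 genes called higher, 0 to 145 called lower and 0 to 1 member called higher. No member was called lower under any alternative. The sign turned for Cdkn1a without mature replicate 2 (log2 fold change 0.38, with −0.48 as its lowest when another library was left out), for Cdkn1c without elderly replicate 1 (−0.066, with 0.79 as its highest) and for Trp53 without elderly replicate 1 (−0.044). DESeq2 called 547 genes higher and 154 lower, and the robust quasi-likelihood fit 727 and 183. The fit without a filter called 892 higher and 265 lower. The exact test at a dispersion of 0.2 called 200 higher and 33 lower, with 0 members called higher. The causes were not tested. The sources used here do not pair the same-numbered libraries of the ages. Their deviations from the age means correlated at 0.0412 over 14880 genes, a single value that cannot decide whether they shared a preparation. With the replicate block 970 genes were called higher and 292 lower, Lmnb1 stayed called at 1.18 and no other member was called.

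With 2 libraries per age, the 95% interval of Cdkn1b ran from −0.82 to 0.079, although each library held 768 to 1084 of its counts. Its difference of −0.37 was therefore not told from 0. The smallest difference that the test could call was not computed. Depth limited Cdkn2b, Cdkn2d and Cdkn1c, with 15 to 75 counts in each library. What the counting left out limited Cdkn1b, Cdkn1c, Trp53 and Cdkn2a, whatever the depth.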

Other observations

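Markers of cells other than those named beside Lmnb1 were also summed, and their calls are beside 2.28% of all genes called higher. Macrophage markers were at 4013 and 3604 CPM in mature and 2769 and 4295 CPM in elderly libraries, with 5 of 9 called higher. Vcam1, which is also on the LEPR+ stromal list, made up 82.2% of that sum. The other macrophage markers were at 524 and 337 CPM in mature and 816 and 942 CPM in elderly libraries, both elderly above both mature. Megakaryocyte markers were at 19.5 and 228 CPM in mature and 94.7 and 173 CPM in elderly libraries. B-lineage markers were at 770 and 681 CPM against 514 and 607 CPM, with 1 of 10 called higher and Cd79b at 0. Ebf1, which stromal cells also express, made up 90.6% of that sum. The other B-lineage markers were at 42.4 and 33.9 CPM in mature and 98.1 and 66.3 CPM in elderly libraries, again the higher in elderly ones. Plasma cell markers were at 139 and 117 CPM against 145 and 161 CPM, with 2 of 5 called higher. T cell markers were at 4.05 and 6.43 CPM against 15.3 and 9.17 CPM. Endothelial markers were at 21.3 and 31.0 CPM against 28.2 and 26.5 CPM, with 0 of 6 called, and Tek was at 0. Pecam1, whose ages overlapped, made up 56.2% of that sum. The other endothelial markers were at 7.92 and 6.00 CPM in mature and 13.2 and 19.8 CPM in elderly libraries, both elderly above both mature. No level was read from the counts of 0 for Cd79b and Tek, whose countable bases are not given here. Ptprc, the gene of CD45, which the sort removed, had 4 and 1 counts in mature and 12 and 8 in elderly libraries, from countable bases worth 2.61% of its longest transcript.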
